A study of Mus musculus with 6 samples.

Results

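The immediate early genes of the FOS, JUN and EGR families were followed in mouse granulosa cells kept with or without GSK4112. The 10 genes were listed by name, Fos, Fosb, Fosl1, Fosl2, Jun, Junb, Jund, Egr1, Egr2 and Egr3, and all 10 were found among the 27151 gene IDs of the deposited table. Granulosa cells are the somatic cells of the ovarian follicle that surround the oocyte. They were punctured out of mouse follicles, cultured for 24 h with serum and starved of serum for 12 h. The GSK4112 group (3 libraries) then received GSK4112, a small-molecule agonist of the nuclear receptor NR1D1 (REV-ERBα), for 24 h with fresh medium every 12 h, and the control group (3 libraries) was kept without it. The labels used here name no strain, age, genotype or vehicle, and the series' design text speaks of treatment in vivo while the protocol describes culture. Whether the libraries of a group are separate cultures or animals is not stated, and p-values therefore reflect only library-to-library spread, part of which may be technical.

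FOS proteins bind DNA as dimers with a JUN protein, together forming the transcription factor AP-1. JUN proteins can also pair with each other. EGR proteins are zinc finger factors that bind GC-rich sites as monomers. Classic immediate early genes include Fos, Fosb, Jun, Junb, Egr1, Egr2 and Egr3. They are switched on within minutes by growth factors or serum, often through ERK and the serum response factor, and their mRNAs are short-lived. Jund and Fosl2 are made more steadily. In granulosa cells FOS, JUN and EGR1 are best known as fast targets of the luteinizing hormone surge before ovulation.

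The start-site regions shown are from the genes that held a motif marked below in a window read. These are Fos and Fosb, whose mRNA was lower with GSK4112 in each replicate number. The others are Fosl2, the most abundant member, and Egr2, which stayed low in both groups. The windows read for Jun, Junb and Jund held none of the marked motifs, although Junb was also lower in each number. Each sequence is the 250 bases before a RefSeq start site (assembly GRCm38.p6), read 5′ to 3′ on the gene's strand. Capitals mark the CRE core TGACGT, the EGR site GCGNGGGCG, or the CArG box bound by the serum response factor, searched on both strands.
Fos, chr12:85473640-85473889, plus strand: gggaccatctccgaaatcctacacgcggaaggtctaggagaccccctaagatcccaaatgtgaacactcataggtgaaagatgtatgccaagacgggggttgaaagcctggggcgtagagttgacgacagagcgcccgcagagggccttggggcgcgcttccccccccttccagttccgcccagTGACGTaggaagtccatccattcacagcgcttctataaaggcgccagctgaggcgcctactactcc
Fosb, chr7:19310046-19310295, minus strand: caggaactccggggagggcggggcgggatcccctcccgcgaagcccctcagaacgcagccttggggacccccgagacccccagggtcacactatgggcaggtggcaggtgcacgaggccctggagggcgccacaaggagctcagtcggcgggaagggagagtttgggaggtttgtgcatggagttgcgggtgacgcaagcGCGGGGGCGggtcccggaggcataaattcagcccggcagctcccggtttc
Fosl2, chr5:32136222-32136471, plus strand: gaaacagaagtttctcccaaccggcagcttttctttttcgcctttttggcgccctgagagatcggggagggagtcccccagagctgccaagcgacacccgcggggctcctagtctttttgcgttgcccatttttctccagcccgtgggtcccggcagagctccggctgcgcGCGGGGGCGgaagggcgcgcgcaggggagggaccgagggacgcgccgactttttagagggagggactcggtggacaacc
Egr2, chr10:67537619-67537868, plus strand: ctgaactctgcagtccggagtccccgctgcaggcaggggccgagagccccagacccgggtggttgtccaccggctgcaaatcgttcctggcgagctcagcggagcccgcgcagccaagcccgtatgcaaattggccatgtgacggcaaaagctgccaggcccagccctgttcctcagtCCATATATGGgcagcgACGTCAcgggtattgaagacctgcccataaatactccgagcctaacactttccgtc

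The capitals in Fos are the CRE core at bases -66 to -61 from the start site, and those in Fosb (-50 to -42) and Fosl2 (-79 to -71) are EGR sites. The Egr2 window shown carries a CArG box at -72 to -63 and a CRE core on the opposite strand at -56 to -51. Several Egr2 windows were read. The window from 67535249 to 67535498 held no marked motif. The window from 67537316 to 67537565 held only a CArG box, CCTTTTTTGG. The remaining Egr2 windows overlap the window shown and hold the same sites. Of all 32851 such windows, 6.47% held the CRE core, 4.7% the EGR site and 1.47% a CArG box. The complete CRE, TGACGTCA, which contains the core, was in 1.55% of windows, and the AP-1 site TGANTCA was in 6.75%. Neither was in any of the windows read for Fos, Fosb, Fosl2, Jun, Junb, Jund and Egr2. Only exact letters counted, and the Jun window holds TGACATCA, which differs from the complete CRE in a single letter. The core hexamer AGGTCA of REV-ERB sites (14.0% of all windows) and the longer RORE (0.648%) were in none of these windows either. The Jund window ended at base 70697738, upstream of the annotated gene. For Jund and Junb no GENCODE M21 transcript held bases 11 to 50 after the window's start site, so these windows may not lie at the start site used in these cells. A match describes letters and not a bound site. Sites outside these 250 bases were not searched, so a motif missing here may lie farther upstream or downstream, in Fos as in the others.

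The cells carried the granulosa transcripts Foxl2 (41.95 ± 10.7 FPKM in GSK4112 and 56.2 ± 8.34 in control), Inha (1892 ± 461 and 2036 ± 178.5) and Amhr2 (59.8 ± 14.3 and 56.6 ± 2.88). FPKM is fragments normalized to exon length and library size, so levels of different genes can be compared, and errors are SD with n = 3 per group. Of 13 granulosa markers 11 averaged at least 1 FPKM, while Amh (0.352 ± 0.0974 and 0.4901 ± 0.154) and the aromatase gene Cyp19a1 (0.0862 ± 0.0763 and 0.0727 ± 0.07065) did not. Of the 13, 4 were lower in GSK4112 with no overlap between the groups and 1 was higher, beside 7.9% and 15.7% of all genes tested. Fst, the activin-binding protein follistatin (24.0 ± 2.38 and 73.6 ± 15.4), and the estrogen-forming enzyme gene Hsd17b1 (25.3 ± 3.94 and 64.3 ± 7.25) were called lower without the block (limma adjusted p = 0.0187 for each). Inhba, the beta A subunit of activin and inhibin, was at 124 ± 71.7 and 335 ± 31.9 (0.102, and 0.0266 with the block), and the KIT ligand gene Kitl was at 79.1 ± 16.0 and 34.5 ± 6.79 (0.0549, and 0.0257 with the block). These 4 genes were named after their values were seen, and the part of such differences in the members' values was not tested. Depth, read from the steps of the low values, was 16559256 to 18158273 fragments per library. Fragments recovered over the genes summed to 17566674 to 19203352, above that depth in each library, so the depth is approximate. In both groups the replicate 1 library stood apart from the others. Summed FPKM of 18 mitosis genes was 209, 42.5 and 38.2 in GSK4112 replicates 1, 2 and 3 and 283, 69.6 and 76.3 in control replicates 1, 2 and 3. The theca and stroma markers summed to 156, 76.05 and 87.3 in GSK4112 and to 246, 52.1 and 55.2 in control, mostly Acta2. In that list only 3 of 10 genes averaged at least 1 FPKM. Cyp17a1, which defines theca cells, was at 0.027 ± 0.0266 and 0.027 ± 0.0278. Immune markers (2 of 7 at 1 FPKM or more) summed to 37.3, 16.3 and 18.5 in GSK4112 and to 39.8, 13.3 and 7.08 in control. In bulk samples fewer cells of a type and less RNA per cell cannot be told apart.

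All values below are in the order of replicates 1, 2 and 3. With GSK4112, Fos, Fosb, Egr1 and Junb were lower than in control in each of the 3 replicate numbers, whereas Fosl1, Fosl2, Jun, Jund, Egr2 and Egr3 were lower in some numbers and higher in others. In limma across all 12181 genes with a mean of at least 1 FPKM, none of the 8 members tested was called (Benjamini-Hochberg adjusted p under 0.05). Fosb and Egr1, 2 of the 8, had an unadjusted p under 0.05, as did 17.0% of all genes tested. The share of all genes called was 1.03%. When the replicate number was added to the fit as a block, so that libraries were compared within a number, 4 members were called, all lower (Fos, Fosb, Junb and Egr1), with 3.82% of all genes called lower in that fit. The replicate numbers come from the labels, but no label states that they mark a shared culture. Without both replicate 1 libraries and with no block, 3 were called lower (Fos, Fosb and Egr1), against 3.8% of all genes. Over all genes tested, 18.6% were lower in GSK4112 in each of the 3 numbers.

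**Figure D1:**
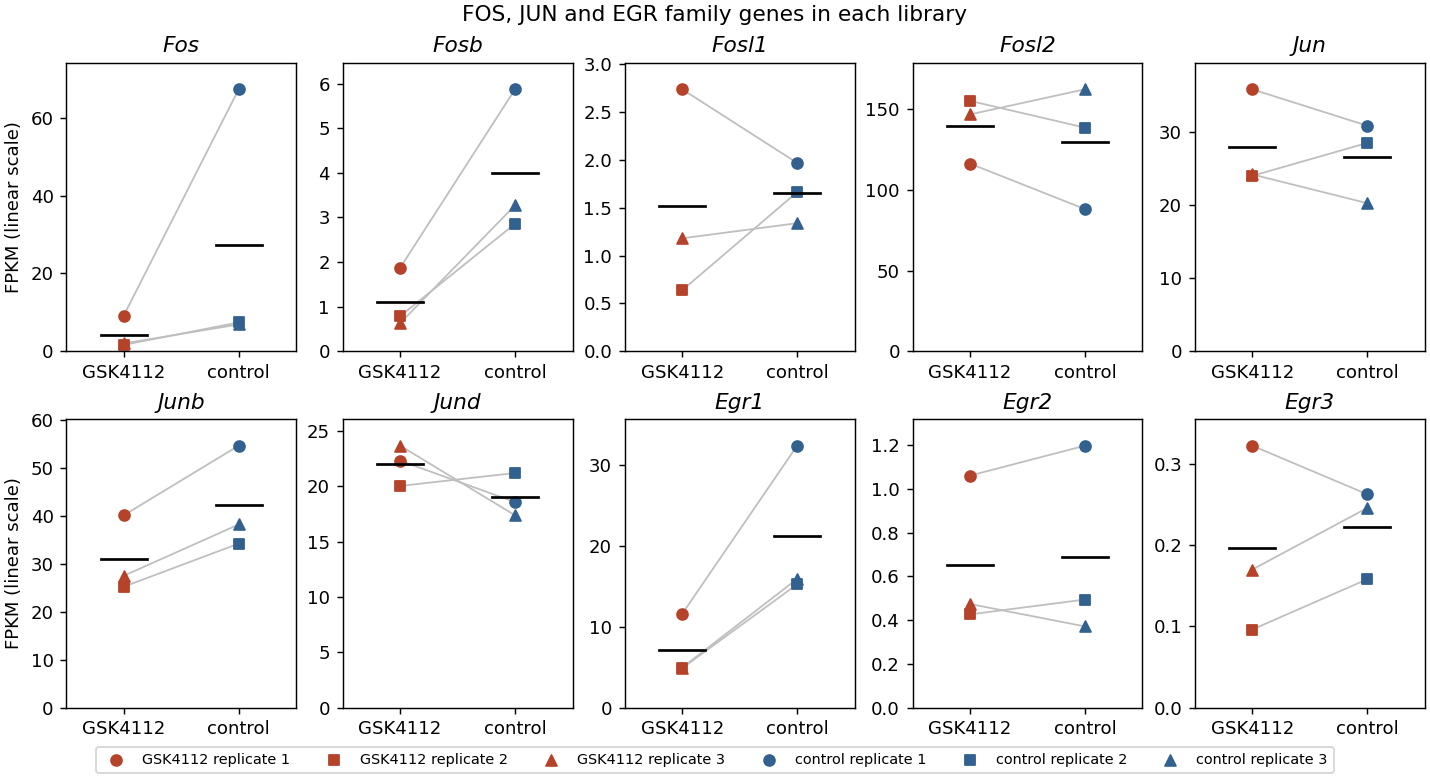
FPKM (linear axis, separate for each gene) of the 10 genes in the 3 GSK4112 and 3 control libraries; symbols mark replicate numbers, grey lines join libraries of one number and black bars are group means. Fos, Fosb, Egr1 and Junb are lower in GSK4112 along each line, and replicate 1 (circles) is the highest library of its group in each of these 4 genes.

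In the FOS family, Fos and Fosb were lower with GSK4112 in each replicate number but not called in the fit without the block, and Fosl1 and Fosl2 were lower in some numbers and higher in others. Fos encodes the founding FOS subunit of AP-1 (ENSMUSG00000021250, GRCm38 chromosome 12, 85473890 to 85477273, plus strand). It was at 9.16, 1.62 and 1.98 FPKM in GSK4112 libraries and at 67.4, 7.39 and 6.87 in control libraries. The groups overlap only because GSK4112 replicate 1 lies above control replicates 2 and 3, and control replicate 1 is far above all others. These levels rest on 364, 63 and 81 fragments in GSK4112 and 2877, 300 and 269 in control. Within a number, the control level was 7.36, 4.57 and 3.47 times that with GSK4112. The log2(FPKM + 1) difference, GSK4112 minus control, was -1.94 ± 0.93 (SE) with a limma adjusted p of 0.354, and ± 0.25 with an adjusted p of 0.0118 with the block. Without control replicate 1 the difference was -0.92, and without both replicate 1 libraries it was -1.54 (adjusted p = 0.00296 in limma; over 20 alternatives it ran from 3.15e-05 to 0.686).

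Fosb (ENSMUSG00000003545, chromosome 7, 19302696 to 19310051, minus strand) encodes another FOS subunit, known for its long-lived spliced form in the brain. It was at 1.87, 0.784 and 0.627 FPKM in GSK4112 and at 5.88, 2.86 and 3.27 in control. Every GSK4112 library was below every control library, which held in the direction of lower GSK4112 for 7.9% of all genes tested. An exact permutation test, two-sided, gave p = 0.1, and 3 against 3 libraries allow none smaller. The log2 difference was -1.26 ± 0.297 (SE, limma adjusted p = 0.11), and with the block its SE was 0.119 and its adjusted p 0.00534. Without both replicate 1 libraries the difference was -1.25 (adjusted p = 0.00821 in limma; over 19 alternatives it ran from 0.000348 to 0.3715).

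Fosl2 (ENSMUSG00000029135, chromosome 5, 32135801 to 32157842, plus strand) encodes FRA-2, a FOS-related subunit without the strong activation region of FOS. Its level was 116, 155 and 147 FPKM in GSK4112 and 88.1, 139 and 162 in control. The groups overlapped, and in each group replicate 1 was the lowest library, the opposite of Fos. The log2 difference was 0.14 ± 0.24 (SE, limma adjusted p = 0.803), with a 95% interval of -0.43 to 0.70. A fall of the size seen in Fosb lies outside that interval.

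Fosl1 (ENSMUSG00000024912, chromosome 19, 5447547 to 5455946, plus strand) encodes FRA-1, which AP-1 itself often induces. It was at 2.74, 0.637 and 1.18 FPKM in GSK4112 and 1.97, 1.66 and 1.34 in control, and GSK4112 held both the highest and the lowest library. The log2 difference was -0.16 ± 0.304 (SE, limma adjusted p = 0.828, 95% interval -0.88 to 0.57), and it was 0.11 without GSK4112 replicate 2. Its value is uncertain, because 1163 of its 2033 exon bases are shared with Ccdc85b on the opposite strand (18.6 to 25.8 FPKM in GSK4112 and 18.2 to 25.3 in control), and no strand setting is given.

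Fosl2 thus made up most of the FOS family's mRNA per length. Its share of the family's summed FPKM was 89.4, 98.1 and 97.5% in GSK4112 and 53.9, 92.1 and 93.4% in control. The share of Fos was 7.04, 1.02 and 1.32% in GSK4112 and 41.25, 4.91 and 3.95% in control. Fos, Fosb and Fosl1 summed to 13.8, 3.04 and 3.79 FPKM in GSK4112 and to 75.2, 11.9 and 11.5 in control, and GSK4112 replicate 1 lies above control replicates 2 and 3 in this sum. The sum over the whole family was 130, 158 and 151 FPKM in GSK4112 and 163, 150.5 and 174 in control, where the groups overlap.

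**Figure D2:**
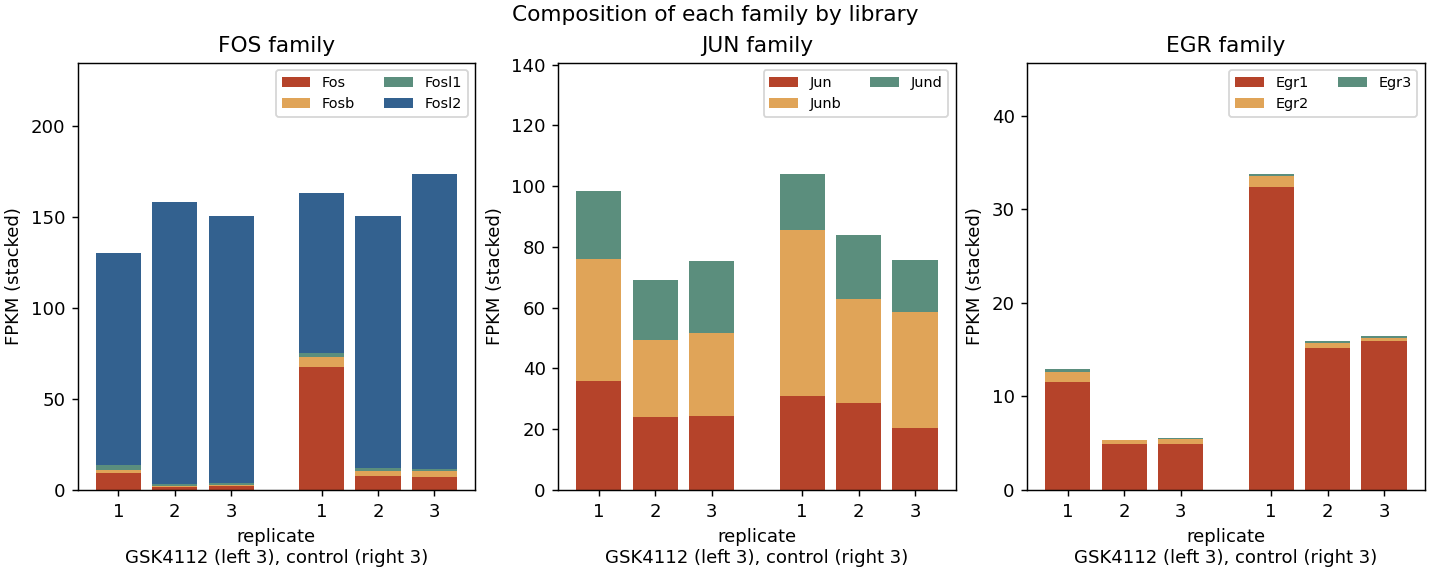
Stacked FPKM of the FOS, JUN and EGR family members in each library, GSK4112 replicates 1 to 3 on the left and control replicates 1 to 3 on the right of each panel. Fosl2 fills most of each FOS bar, Junb is the largest part of each JUN bar (36.4 to 40.8% in GSK4112 and 40.8 to 52.5% in control), and Egr1 makes up nearly the whole EGR bar, with GSK4112 sums of 5.38 to 12.95 FPKM and control sums of 15.9 to 33.8.

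Among the JUN genes, Junb differed by a small and even amount. Junb (ENSMUSG00000052837, chromosome 8, 84974484 to 84978718, minus strand) encodes a JUN subunit that activates transcription more weakly than JUN. It was at 40.1, 25.2 and 27.5 FPKM in GSK4112 and at 54.7, 34.2 and 38.2 in control. GSK4112 replicate 1 lies above control replicates 2 and 3, so the groups overlap, but within a number GSK4112 was at 0.734, 0.737 and 0.72 of the control level. The log2 difference was -0.44 ± 0.23 (SE, limma adjusted p = 0.383), and with the block the SE was 0.079 and the adjusted p 0.0297. Without both replicate 1 libraries it was -0.44 and just missed the threshold (limma adjusted p = 0.0544; over 20 alternatives it ran from 0.0147 to 0.736). Junb shares 173 of its 2301 exon bases with the 3′ end of the opposite-strand gene Prdx2, which was at 172 to 202 FPKM in GSK4112 and 199.5 to 244 in control. Prdx2's part in the Junb value was not tested.

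Jun (ENSMUSG00000052684, chromosome 4, 95049034 to 95052222, minus strand) encodes c-JUN, the strongest activator among the JUN subunits. It was at 35.8, 23.99 and 24.2 FPKM in GSK4112 and at 30.9, 28.5 and 20.3 in control, with overlapping groups. The log2 difference was 0.07 ± 0.21 (SE, limma adjusted p = 0.893, 95% interval -0.43 to 0.57). Its antisense neighbour Junos was at 0.126 to 0.235 FPKM in GSK4112 and 0.0936 to 0.253 in control. Jund (ENSMUSG00000071076, chromosome 8, 70698949 to 70700616, plus strand) encodes the steadily made JUN subunit. Its levels were 22.3, 20.02 and 23.7 FPKM in GSK4112 and 18.6, 21.2 and 17.4 in control. GSK4112 was higher in 2 of 3 numbers, and the difference was 0.20 ± 0.10 on the log2 scale (SE, limma adjusted p = 0.386, 95% interval -0.05 to 0.45). Of Jund's 1668 exon bases 877 overlap the antisense gene Gm11175, for which no value was found. No strand setting is given, so whether reads of Gm11175 enter the Jund value is not known.

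The ratio of Junb to Jun FPKM was 1.12, 1.05 and 1.14 in GSK4112 and 1.77, 1.20 and 1.89 in control, and the groups of this ratio do not overlap. The ratio of Fos to Jun, partners in the AP-1 dimer, was 0.256, 0.0674 and 0.0819 in GSK4112 and 2.18, 0.259 and 0.339 in control. All 3 control ratios lie above the GSK4112 ones, by a narrow margin for GSK4112 replicate 1 against control replicate 2. These ratios were formed after the values were seen.

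**Figure D3:**
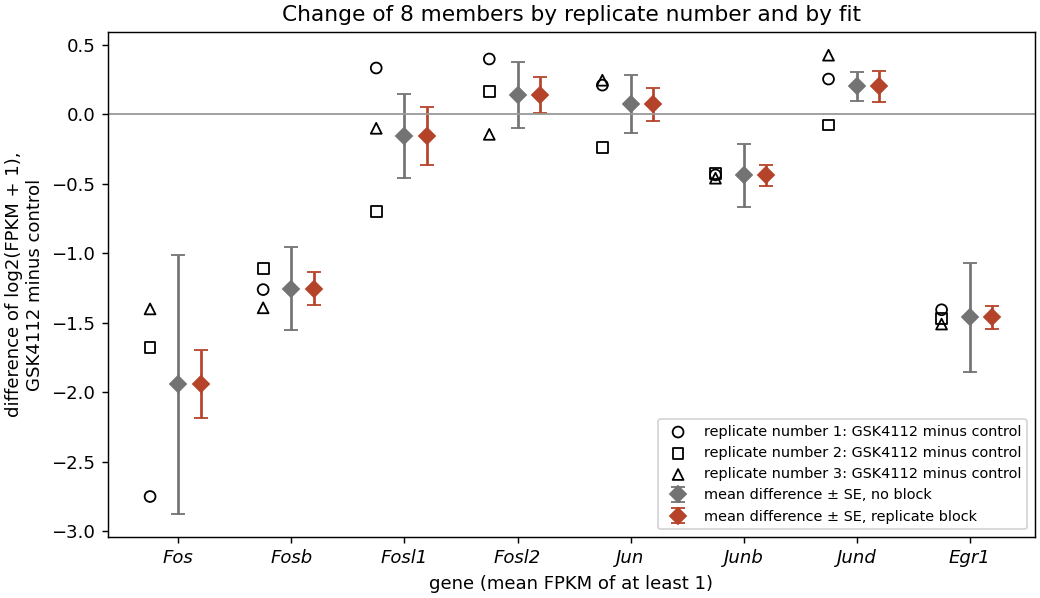
Difference of log2(FPKM + 1), GSK4112 minus control, for the 8 genes tested; open symbols are single replicate numbers, and diamonds are the limma mean difference ± SE without (grey) and with (red) the replicate block. For Egr1 and Junb the 3 numbers nearly coincide, Fos spreads from -2.75 to -1.40, and Fosl1, Fosl2, Jun and Jund have numbers on both sides of 0.

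Egr1 differed by nearly the same factor in each replicate number. Egr1 (ENSMUSG00000038418, chromosome 18, 34859823 to 34864984, plus strand) encodes the main EGR factor, in the pituitary required for the luteinizing hormone beta subunit. Its level was 11.6, 4.86 and 4.93 FPKM in GSK4112 and 32.3, 15.2 and 15.9 in control, from 361 to 877 fragments in GSK4112 and 1178 to 2632 in control. The groups do not overlap (exact permutation p = 0.1), and within a number the control level was 2.79, 3.13 and 3.22 times that in GSK4112. The log2 difference was -1.46 ± 0.39 (SE, limma adjusted p = 0.137), and with the block its SE was 0.081 and its adjusted p 0.00184. By p-value Egr1 ranked 698 of the 12181 genes without the block and 5 with it. Without both replicate 1 libraries the difference was -1.49 (adjusted p = 0.00177 in limma; over 20 alternatives it ran from 9.42e-06 to 0.419).

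Egr2 and Egr3 were the least abundant members. Egr2 (ENSMUSG00000037868, chromosome 10, 67535475 to 67542188, plus strand), known for its role in myelination, was at 1.06, 0.427 and 0.474 FPKM in GSK4112 and 1.20, 0.494 and 0.371 in control. Replicate 1 was the highest library of each group. Egr3 (ENSMUSG00000033730, chromosome 14, 70077203 to 70082614, plus strand), an EGR factor of muscle spindles and lymphocytes, was at 0.322, 0.0959 and 0.17 FPKM in GSK4112 and 0.262, 0.158 and 0.246 in control. It rested on 7 to 24 fragments in GSK4112 and 12 to 21 in control. Both were under the filter on low values and had overlapping groups.

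In order of mean level, the GSK4112 libraries had Fosl2 (139 ± 20.4 FPKM), Junb (30.95 ± 8.03), Jun (28.0 ± 6.78), Jund (22.0 ± 1.84), Egr1 (7.12 ± 3.85), Fos (4.25 ± 4.25), Fosl1 (1.52 ± 1.09), Fosb (1.09 ± 0.675), Egr2 (0.654 ± 0.354) and Egr3 (0.196 ± 0.115). In control the order was Fosl2 (129.7 ± 37.95), Junb (42.4 ± 10.8), Fos (27.2 ± 34.8), Jun (26.5 ± 5.56), Egr1 (21.1 ± 9.69), Jund (19.04 ± 1.96), Fosb (4.002 ± 1.64), Fosl1 (1.66 ± 0.315), Egr2 (0.688 ± 0.447) and Egr3 (0.222 ± 0.0562). In GSK4112 the ranges of neighbours overlap from Egr1 through Fos, Fosl1 and Fosb to Egr2, and between Junb and Jun. Jund lies apart from Jun and Egr1 there, Fosl2 lies above all, and Egr3 lies below all. In control, Fos, Jun, Egr1 and Jund have overlapping ranges, as do Junb and Fos, while Fosl2 lies above all and Fosb, Fosl1, Egr2 and Egr3 are each apart from their neighbours. The place of Fos above Jun rests on control replicate 1.

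Libraries also differed by replicate number, and not only by group. In control, Fos in replicate 1 was 9.45 times the mean of the other libraries, and in GSK4112 it was 5.09 times. The same ratio was 2.36 in GSK4112 and 2.08 in control for Egr1, 2.65 and 1.92 for Fosb, and 1.52 and 1.51 for Junb. For Fosl2 it was 0.771 in GSK4112 and 0.585 in control, and for Jund 1.02 and 0.963. The mitosis sum was also highest in the replicate 1 libraries and lower in GSK4112 than in control within each number, and its part in the values of Fos, Fosb, Junb and Egr1 was not tested. Fosb and Egr1 were as far from control without the replicate 1 libraries as with them.

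Other genes with nearly the same pattern over the 6 libraries were sought among the protein-coding genes tested, by the mean absolute difference of log2(FPKM + 1) after each gene was centred on its own mean. For Egr1 the closest were the proprotein convertase gene Pcsk5 (mean absolute difference 0.0466) and Inhbb, the activin and inhibin beta B subunit (0.0848), over a range of 2.51 for Egr1 itself. Inhbb was at 7.48, 2.40 and 2.76 FPKM in GSK4112 and 21.3, 10.2 and 11.4 in control. Closest to Fosb were Emp1, an epithelial membrane protein gene (0.0751), and the anion transporter gene Slco3a1 (0.0822). For Junb they were Lsm6, of an RNA-binding complex (0.0255), and Rusc2 (0.0297). The genes nearest to Fos, which had the widest range of the members (4.71), were Hmgn5 (0.402) and the neurotrophin gene Bdnf (0.426). The measure is not scaled to a gene's range, so its size is not comparable between members. For Jund they were Vegfb (0.0308) and the ribosomal protein gene Rplp0 (0.0321), for Jun Tpd52 (0.0521) and Dusp3 (0.0567), for Fosl2 the insulin receptor gene Insr (0.053) and Dpysl4 (0.0539), and for Fosl1 Pmepa1 (0.0638) and Uchl1 (0.0817). Among pairs of members, Fosb and Egr1 were the most alike (0.153).

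**Figure D4:**
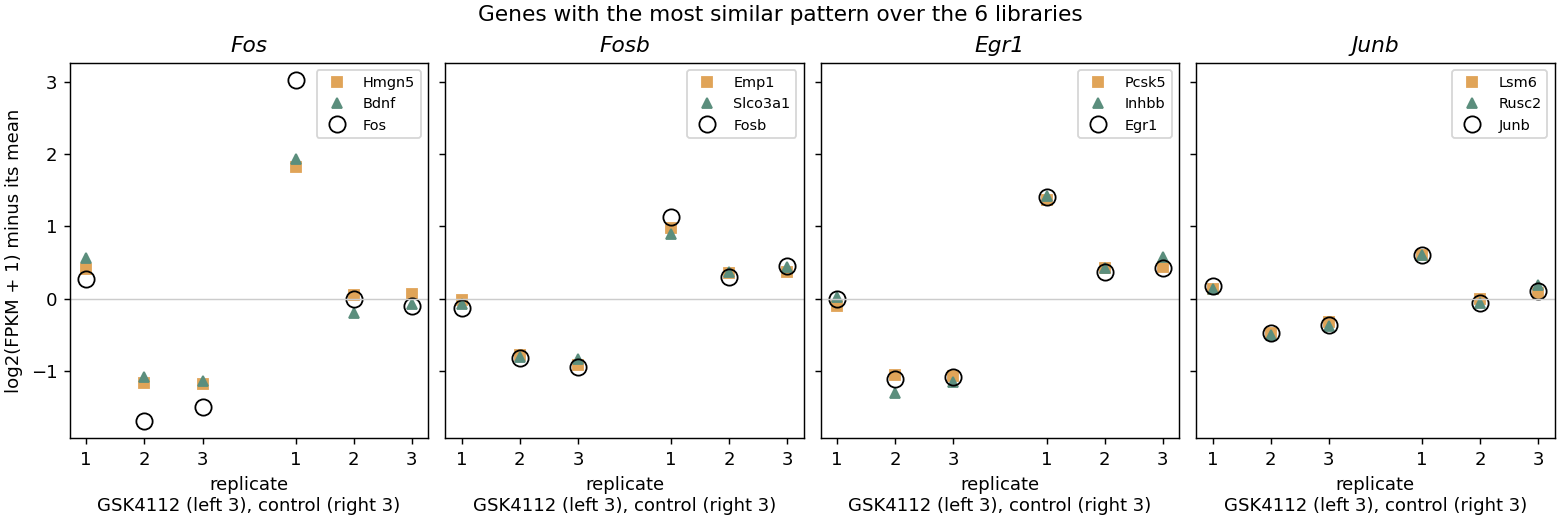
log2(FPKM + 1) minus its mean over the 6 libraries for Fos, Fosb, Egr1 and Junb (open circles) and the 2 protein-coding genes nearest to each, GSK4112 replicates 1 to 3 on the left and control replicates 1 to 3 on the right. The near genes of Egr1, Fosb and Junb lie on or beside the open circles, while those of Fos span a smaller range than Fos.

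Among genes that are usually induced together with the members, those called in limma on log2(FPKM + 1) over all 6 libraries, with or without the block, were lower. Of 34 other immediate early genes 28 were tested, and 1 was called lower without the block (Gem, an RGK family GTPase) against 0.624% of all genes. Gem was at 2.70, 2.10 and 2.73 FPKM in GSK4112 and 7.77, 11.9 and 11.8 in control, a log2 difference of -1.70 ± 0.18 (SE, limma adjusted p = 0.0187). With the block 8 were lower, against 3.82% of all genes, and the other genes tested were not called. Without both replicate 1 libraries 7 were lower, against 3.8% of all genes, and 1 was higher, against 3.23%. Klf2, the higher one, a KLF factor gene named after its values were seen, was at 3.78, 8.01 and 9.72 FPKM in GSK4112 and 3.46, 4.58 and 4.49 in control (limma adjusted p = 0.376, 0.0942 with the block and 0.0174 without those libraries). The median log2 change of the list was -0.25, beside 0.05 for all genes tested and -0.30 for the 8 members. The abundant matricellular gene Ccn1 was at 359, 113 and 128.5 FPKM in GSK4112 and 497, 243 and 298 in control (limma adjusted p = 0.383, and 0.029 with the block). Ier3, a stress-responsive immediate early gene, was at 177, 106 and 122 FPKM in GSK4112 and 243, 248 and 189.5 in control (0.144, and 0.045 with the block).

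Further genes among the 8, picked once their values were known, included Ier2 and the ERK phosphatase gene Dusp6. Ier2 was at 26.7, 11.4 and 13.4 FPKM in GSK4112 and 45.3, 23.3 and 24.96 in control (limma adjusted p = 0.301, and 0.00628 with the block). Dusp6 was at 32.6, 7.91 and 7.66 FPKM in GSK4112 and 64.1, 11.95 and 11.2 in control, again with replicate 1 highest in both groups (0.715, and 0.0271 with the block).

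No kinase or factor that acts upstream of the members passed the test. Of 23 genes of the RAS, ERK, JNK and p38 kinases and of the serum response factor with its partners, all were tested and 0 were called in limma with or without the block (4 and 2 at an unadjusted p under 0.05), with a median log2 change of 0.06. Mapk3, which encodes the kinase ERK1, was at 97.97 ± 13.7 FPKM in GSK4112 and 95.4 ± 12.7 in control, and Map2k1, the gene of its activator MEK1, at 37.5 ± 5.64 and 59.7 ± 22.1 (limma adjusted p = 0.301). These are mRNA levels and not kinase activity.

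Of 17 other bZIP genes 14 were tested, and none was called in limma without the block (5 at an unadjusted p under 0.05). With it 2 were higher (Ddit3 and Mafg), against 3.07% of all genes, and 1 was lower (Mafk). Ddit3, the stress-induced partner CHOP, was at 16.5, 18.97 and 22.3 FPKM in GSK4112 and 7.49, 9.98 and 11.2 in control (limma adjusted p = 0.0591, and 0.00514 with the block). Mafg was at 29.9 ± 2.61 FPKM in GSK4112 and 21.8 ± 3.69 in control, and Nfe2l2, the antioxidant regulator NRF2, at 41.1 ± 0.606 and 39.9 ± 5.62. Of 8 cofactors and related zinc finger genes of the EGR class 7 were tested and 0 were called in limma, with or without the block (1 and 1 at an unadjusted p under 0.05). They included the EGR corepressor gene Nab2, at 4.63, 4.99 and 5.75 FPKM in GSK4112 and 4.93, 3.84 and 3.39 in control, Klf6 (35.9 ± 15.5 and 37.1 ± 15.0) and Sp3 (21.1 ± 1.67 and 18.7 ± 2.20).

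Of 18 EGR targets known from other tissues 15 were tested, and 1 was called lower without the block, the growth factor gene Pdgfb, against 0.624% of all genes. Pdgfb was at 13.8, 8.51 and 8.69 FPKM in GSK4112 and 36.7, 26.7 and 25.99 in control, a log2 difference of -1.46 ± 0.21 (SE, limma adjusted p = 0.0421). With the block 3 were lower (Pdgfb, Thbs1 and Ptgs2), against 3.82% of all genes, and 1 was higher (Sphk1), against 3.07%. Thbs1, thrombospondin 1, was at 543, 529 and 496 FPKM in GSK4112 and 1540, 912 and 1225 in control (limma adjusted p = 0.0539, and 0.0194 with the block). Id3, another gene of the list, was at 243 ± 46.4 and 239 ± 14.1 (limma adjusted p = 0.997), and the median log2 change of the 15 was 0.0021.

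Of 22 AP-1 targets known from other tissues 14 were tested and none was called in limma without the block (2 at an unadjusted p under 0.05). With it 2 were lower (Plau and Ptgs2), against 3.82% of all genes. Plau, urokinase, was at 20.07, 22.6 and 25.7 FPKM in GSK4112 and 86.4, 39.4 and 43.1 in control (limma adjusted p = 0.118, and 0.048 with the block). The most abundant genes of the list, Vim (269 ± 26.6 FPKM in GSK4112 and 285 ± 57.4 in control) and Hmox1 (106 ± 16.8 and 80.9 ± 59.3), were not called in either fit. Ptgs2 and Tgfb1 stand in both target lists. Tgfb1, named after its values were seen, was at 12.5 ± 0.719 FPKM in GSK4112 and 9.74 ± 0.566 in control. It was not called (limma adjusted p = 0.126, and 0.0755 with the block).

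**Figure D5:**
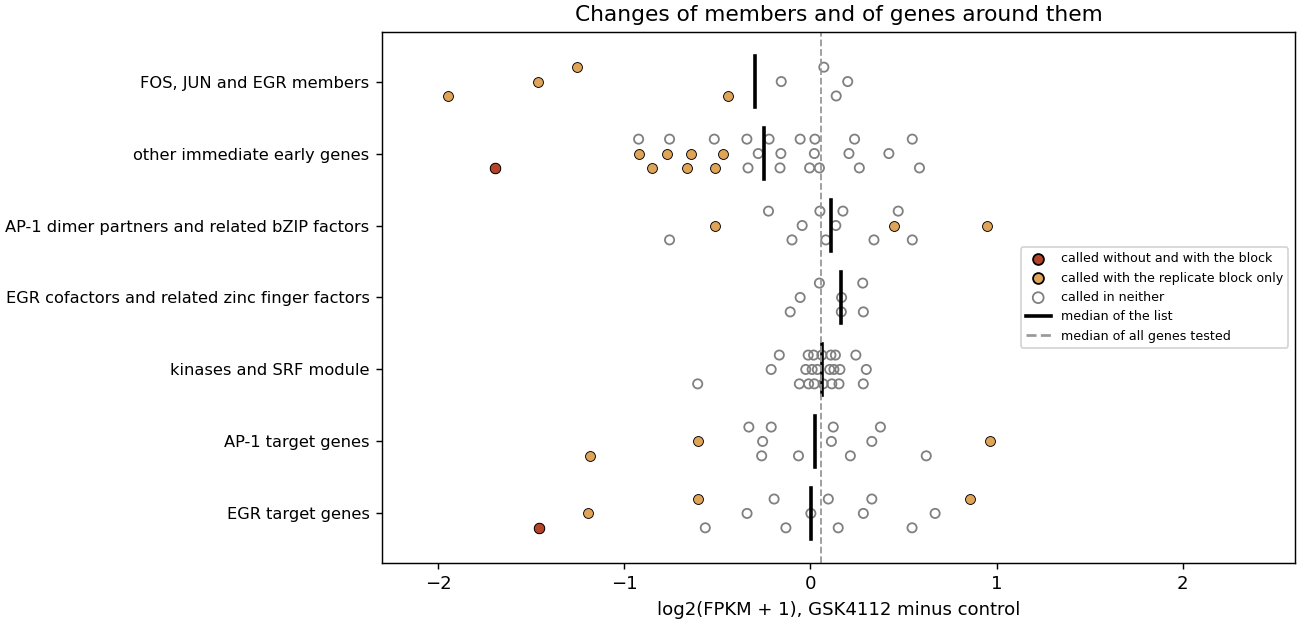
Difference of log2(FPKM + 1), GSK4112 minus control, of the 8 members tested and of the tested genes of 6 lists, one circle a gene; red circles are called without and with the replicate block, orange ones with the block only, black bars are list medians and the dashed line is the median of all genes tested (0.05). The members and the other immediate early genes have medians of -0.30 and -0.25, and the other lists lie between 0.0021 and 0.17.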

How the data were processed

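RNA-seq of mouse granulosa cells in culture gave 3 GSK4112 and 3 control libraries, grouped by sample title. The authors deposited FPKM values for 27151 Ensembl gene IDs; the submitters' processing notes name the build GRCm38, and no source used here names an aligner, counter, annotation or strand setting. Symbols and exon lengths came from GENCODE M21 (27098 IDs matched, 53 did not). FPKM times exon length gave whole fragments within 0.01 for 90.4 to 90.7% of values, which implied the depths; Fosl1 did not come out whole.

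Genes averaging at least 1 FPKM were tested on log2(FPKM + 1) in limma (version 3.58.1, R 4.3.3), using a variance trend without a block, and adjusted over all genes. This scale understates changes of low genes. The code was tested on simulated data.

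Replicate numbers occur in both groups. Deviations of same-numbered libraries from their group means correlated over genes at 0.665, 0.326 and 0.213, all above the 0.1 required to treat them as paired. GSK4112 replicate 2 correlated better with control replicate 3 (0.53), and GSK4112 replicate 3 with control replicate 2 (0.357). Deviations from a group mean cancel within the group, and replicate 1 stood apart in both groups. These correlations therefore cannot decide how replicates 2 and 3 of the 2 groups belong together. The fit with the replicate block is given beside the other where it changes a call.

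The members and lists were chosen with earlier results of these data known. The genes named were all members, up to 3 called rises and falls per list or else its 2 most abundant members, and the 2 genes most like each member; others are said to be chosen later, and some list genes are not reported here. Motifs were chosen with the promoter sequences in view. Cyr61, Ctgf, Mkl1 and Mkl2 were matched by their current symbols. Alternatives covered pseudocounts, filters, scaling, limma-voom on recovered fragments, sample weights, the block and libraries left out.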

Additional observations from a re-analysis of the deposited data

How the results depend on the processing

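The number of members called was 0 in limma without the block under pseudocounts of 0.1 and 0.5, no filter, a mean of at least 5 FPKM, TPM or median-of-ratios scaling, limma-voom and each library left out in turn (1 to 4 members at an unadjusted p under 0.05). It was 2 with sample weights (Fosb and Egr1) and 3 without both replicate 1 libraries. It was 4 with the replicate block, alone or with those libraries left out, and 4 with the block and limma-voom, median-of-ratios scaling or a pseudocount of 0.1, all added after the data were seen. Fos, Fosb, Junb and Egr1 were lower in every alternative in which they were tested, and Jund was higher. With 1 library left out, the log2 change ran from -0.11 to 0.19 for Jun, from -0.49 to 0.11 for Fosl1 and from -0.12 to 0.32 for Fosl2. Fos ran from -2.565 to -0.92 over all alternatives.

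Over all genes, 126 were called (50 higher and 76 lower) and 44 higher and 117 lower under median-of-ratios scaling. The count was 26 with no filter, 830 with sample weights, 839 with the replicate block, 856 without both replicate 1 libraries and 1139 with both changes. With the block it was 1398 in limma-voom, 786 with median-of-ratios scaling and 816 with a pseudocount of 0.1. It ran from 0 to 153 with 1 library left out: 8 without control replicate 2, and 0 without control replicate 3, GSK4112 replicate 2 or GSK4112 replicate 3 (1843, 1224 and 1318 genes at an unadjusted p under 0.05 in limma). Of the genes on the 6 lists, 2 were called, 0 with no filter (23 at an unadjusted p under 0.05 in limma), 4 with a mean of at least 5 FPKM and 12 with sample weights. The count was 17 with the replicate block, 14 without both replicate 1 libraries and 21 with both. With the block it was 26 in limma-voom, 16 with median-of-ratios scaling and 17 with a pseudocount of 0.1. It ran from 0 to 3 with 1 library left out. The cause of these differences was not tested. Counts of 7 to 24 fragments a library limit the precision of Egr3, and 3 libraries a group limit the single-gene permutation test.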
